A study of Mus musculus with 13 samples.

Results

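Iron handling was described through 10 genes: the hepcidin genes Hamp and Hamp2, the iron sensor Hfe, the uptake genes Trf, Tfrc, Steap3 and Slc11a2, the exporter Slc40a1, and the ferritin genes Fth1 and Ftl1. They are 10 of the 55487 gene IDs in the deposited table and were taken by symbol, with all 10 found. They were chosen by role with their levels in these same libraries already known, including the CPM in PC and RACM, so every difference between the cell types given for them is a description without a test.

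RNA was sequenced from sinoatrial node pacemaker cells (PC), which set the heartbeat, and from right atrial cardiomyocytes (RACM), the neighbouring working muscle. Both were sorted from neonatal mouse hearts of the genotype Hcn4-GFP/Myh6-mCherry, and tissue from the junction of node and right atrium was pooled from 8 to 10 hearts for a replicate. Per the file headers, the PC libraries were the red and green sort and the RACM libraries the red one, so both cell types carried the mCherry reporter under Myh6, and PC also the GFP reporter of the channel gene Hcn4. There were 3 libraries of each, titled p0, p2 and p4 in both cell types. The labels of these RNA samples do not say what the number stands for.

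Hepcidin is a peptide hormone, made mainly by the liver, that binds the iron exporter ferroportin and causes it to be degraded, which holds iron inside cells. Transferrin carries iron in plasma and enters cells by its receptor, after which Steap3 reduces the iron and Slc11a2 moves it into the cytosol. Ferritin, built of heavy and light chains, stores what is not used. In the heart, hepcidin is also made by cardiomyocytes, where it has been studied in mice as a local regulator of iron export.

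Total counts were 18371816 to 22290996 in PC libraries and 14141151 to 19555932 in RACM libraries. Levels are given as CPM, counts scaled to the library total with TMM factors. Hcn4, the gene behind the GFP reporter of the sort, averaged 2607 CPM over PC and 48.5 CPM over RACM libraries. The sort used this reporter, so the difference in Hcn4 is no independent test of the labels. The 8 summed cardiomyocyte markers lay between 111500 and 119100 CPM in PC and between 71310 and 103300 CPM in RACM. The lowest of these sums was in RACM p4. Markers of 15 macrophage genes were not evenly spread. They summed to 31.6, 13.1 and 57.0 CPM in the p0, p2 and p4 libraries of PC, against 206.7, 537.7 and 922.5 CPM in the p0, p2 and p4 libraries of RACM. All 15 were lower in every PC library than in every RACM library, and none was at 0 throughout. The 10 fibroblast markers summed to 997.4, 1072 and 2469 CPM for PC p0, p2, p4, against 2065, 4402 and 12730 CPM for RACM p0, p2, p4. The macrophage and fibroblast sums thus stood in the same order among the RACM libraries, and the fibroblast sums of the cell types overlapped.

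The mouse has a pair of hepcidin genes, Hamp (ENSMUSG00000050440, mm10 chromosome 7 from 30942368 to 30944032, minus strand) and Hamp2 (ENSMUSG00000056978, chromosome 7 from 30922372 to 30924681, minus strand), 17686 bases apart. Their promoters are shown because both genes were higher in PC and because their upstream sequences differ within a motif known from hepcidin promoters. The genes were at very different levels, and a link of these levels to the promoter sequences was not tested. Given here are the 250 bases before the RefSeq transcript start on GRCm38.p6, minus strand, at chr7:30944030-30944279 for Hamp and chr7:30924182-30924431 for Hamp2. The first run of capitals marks GGCGCC, the motif of the BMP-responsive element of hepcidin promoters, and the aligned stretch GGCACC in Hamp2. The second marks the STAT motif TTCNNNGAA.
Hamp: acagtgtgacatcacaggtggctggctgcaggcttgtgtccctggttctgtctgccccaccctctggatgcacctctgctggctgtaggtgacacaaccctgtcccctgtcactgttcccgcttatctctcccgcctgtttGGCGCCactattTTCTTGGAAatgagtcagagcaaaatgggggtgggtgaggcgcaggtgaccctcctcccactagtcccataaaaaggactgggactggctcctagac
Hamp2: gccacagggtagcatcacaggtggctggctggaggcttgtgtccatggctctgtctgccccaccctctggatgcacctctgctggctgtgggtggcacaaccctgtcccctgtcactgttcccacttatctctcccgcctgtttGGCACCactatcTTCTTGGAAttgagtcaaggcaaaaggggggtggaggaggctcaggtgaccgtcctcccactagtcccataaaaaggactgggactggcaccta

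The hepcidin gene windows from 250 bases before to 50 after the start were 92.9% identical over 297 aligned bases. GGCGCC began 109 bases before the start of Hamp. Hamp2 had no match to these letters, and its aligned stretch began 106 bases before its start. TTCNNNGAA was found in both, 97 bases before the start of Hamp and 94 before that of Hamp2. On both strands, GGCGCC occurred in 11.9% of 32851 promoter windows of the same length and TTCNNNGAA in 8.30%. GATAAG, a motif of GATA factors, was also in both hepcidin windows and in 7.44% of all windows. Neither window held the antioxidant response motif TGACNNNGC, found in 12.4% of windows, or the E-box CACGTG, found in 7.15%. Among the other genes with a window, GGCGCC also occurred in Tfrc and TGACNNNGC in Hfe. CAGTG, the loop sequence of iron-responsive elements, was looked for in the 50 transcribed bases. It was found in 1 of the 4 Steap3 windows, against 7.20% of all windows. No other window of the 10 genes held it, including those of Fth1, Ftl1 and Tfrc, but the rest of each transcript was not searched. Only these letters were searched, and only within these windows, so a hit or its absence does not show whether an element is present. Windows were given for 7 of the 10 genes, not for Trf, Slc40a1 or Slc11a2.

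Hamp was the iron gene with the largest excess in PC. It stood at 101.5, 101.6 and 118.8 CPM in the p0, p2 and p4 libraries of PC, against 4.76, 5.67 and 3.55 CPM in the p0, p2 and p4 libraries of RACM. The groups did not overlap, and the spread within each cell type was small beside the gap between them. The means were 107.3 ± 9.95 CPM over PC and 4.66 ± 1.06 CPM over RACM libraries (SD, n = 3 each), a 23.0-fold ratio, and the log2 fold change was 4.53 ± 0.23 (SE). Within the libraries of 1 number the log2 ratio was 4.42 for p0, 4.16 for p2 and 5.06 for p4. In liver, Hamp is a leading transcript of hepatocytes, and of 10 hepatocyte markers Alb, Fgb, Fga and Serpina1a had no count in any library. The summed hepatocyte markers were between 5.85 and 9.14 CPM in PC and between 9.42 and 13.9 CPM in RACM.

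Divided by exon length, Hamp averaged 261.6 CPM per kilobase in PC, rank 130 of 18015 genes, and 11.4 CPM per kilobase in RACM, rank 3388. In PC its level per kilobase stood beside that of Fth1, at 233.6, and the ranges of these genes over the PC libraries overlapped. Exon length in the table joins all annotated exons of a gene (410 bases for Hamp, 3469 for Fth1), which lowers the value of a gene whose main transcript is shorter. In RACM the level of Hamp overlapped those of Tfrc (13.5 CPM per kilobase) and Trf (9.84).

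Hamp2 was far less abundant. It had 4.68, 3.10 and 1.04 CPM in the p0, p2 and p4 libraries of PC, against 0.827, 0.477 and 0.240 CPM in the p0, p2 and p4 libraries of RACM. The groups did not overlap, but the lowest PC library was close to the highest RACM library. The RACM values rest on 12, 8 and 5 counts, and the PC values on 84, 55 and 22. The log2 fold change was 2.52 ± 0.78 (SE). Of the reads assigned to either hepcidin gene, Hamp2 took 4.41%, 2.97% and 0.866% in the p0, p2 and p4 libraries of PC, against 14.8%, 7.77% and 6.33% in the p0, p2 and p4 libraries of RACM. Reads that map to several places were not counted per the file headers, so stretches that the paralogs share may be missing from both, and 15.3% of the exon bases of Hamp2 overlap Gm44662.

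**Figure D1:**
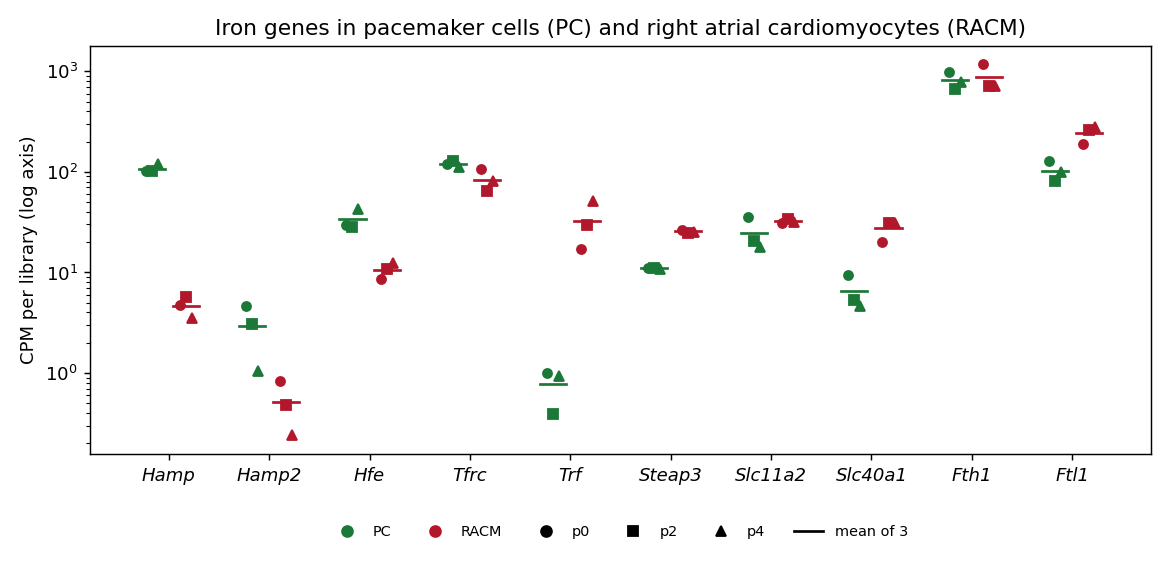
CPM of the 10 iron genes (log axis) in each library, PC in green to the left of RACM in red, symbols by p number, lines at the mean of 3 libraries. Hamp stood near 107.3 CPM over PC and 4.66 CPM over RACM libraries, and Trf went the other way, while the points of Fth1 overlapped.

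Hfe, an MHC class I-like protein that associates with transferrin receptors and takes part in the control of hepcidin (ENSMUSG00000006611, chromosome 13 from 23702034 to 23710854), was also higher in PC. Its levels were 29.8, 28.3 and 42.8 CPM in the p0, p2 and p4 libraries of PC, against 8.69, 10.9 and 12.4 CPM in the p0, p2 and p4 libraries of RACM. Every PC library lay above every RACM library. The means were 33.6 ± 7.98 CPM over PC and 10.7 ± 1.86 CPM over RACM libraries (SD, n = 3 each), and the log2 fold change was 1.65 ± 0.25 (SE).

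Among the uptake genes, Tfrc, which encodes the transferrin receptor (ENSMUSG00000022797, chromosome 16 from 32608920 to 32632794), differed little. It was at 120.0, 127.5 and 111.2 CPM in the p0, p2 and p4 libraries of PC, against 105.8, 64.9 and 80.4 CPM in the p0, p2 and p4 libraries of RACM. The groups did not overlap, though PC p4 and RACM p0 were close together. The log2 fold change was 0.51 ± 0.20 (SE), and within the p0 libraries alone the log2 ratio was 0.18. Slc11a2, the divalent metal transporter DMT1 (ENSMUSG00000023030, chromosome 15 from 100387898 to 100425072), had 35.2, 20.4 and 17.8 CPM in the p0, p2 and p4 libraries of PC, against 31.4, 33.7 and 31.5 CPM in the p0, p2 and p4 libraries of RACM. PC p0 lay above all RACM libraries and the other two PC libraries below them. Its log2 fold change was -0.40 ± 0.27 (SE), with a log2 ratio of 0.17 within p0 and of -0.73 and -0.82 within p2 and p4.

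Steap3, the ferrireductase of the transferrin cycle (ENSMUSG00000026389, chromosome 1 from 120190757 to 120272705), had the steadiest values. They were 11.2, 10.9 and 10.8 CPM in the p0, p2 and p4 libraries of PC, against 26.6, 24.6 and 25.4 CPM in the p0, p2 and p4 libraries of RACM. The groups were well apart, and no library stood out in either. The log2 fold change was -1.22 ± 0.20 (SE), and within the numbers p0, p2 and p4 the log2 ratio was -1.25, -1.17 and -1.24. Steap3 in RACM p4 was 0.954 times its level in RACM p0. The summed macrophage markers were 4.46-fold higher in RACM p4 than in RACM p0, and their part in the difference of Steap3 was not tested.

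Trf, the gene of transferrin (ENSMUSG00000032554, chromosome 9 from 103204001 to 103230444, minus strand), had the largest deficit in PC. It had 1.002, 0.395 and 0.943 CPM in the p0, p2 and p4 libraries of PC, resting on 18, 7 and 20 counts, against 16.96, 29.6 and 51.4 CPM in the p0, p2 and p4 libraries of RACM. All PC libraries were far below all RACM libraries, and the RACM libraries differed widely from each other. The means were 0.780 ± 0.335 CPM over PC and 32.6 ± 17.4 CPM over RACM libraries (SD, n = 3 each), and the log2 fold change was -5.37 ± 0.52 (SE). In bulk libraries, fewer cells of a type and less RNA per cell cannot be told apart.

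The level of Trf in RACM stood in the same order as the macrophage and fibroblast markers given above, lowest in p0 and highest in p4. Trf was 3.03-fold higher in RACM p4 than in RACM p0, where the macrophage sum was 4.46-fold higher. In the RACM library with the lowest macrophage sum, p0, Trf was 16.9-fold above its highest PC library, p0. The macrophage sum there was 3.63-fold above its own highest PC library, p4. Against the mean of the PC libraries, RACM p0 was 21.7-fold higher for Trf and 6.10-fold higher for the macrophage sum. Defining macrophage genes had the same order: the receptor gene Csf1r was at 5.51, 0.282 and 9.24 CPM in the p0, p2 and p4 libraries of PC, against 26.1, 89.2 and 121.2 CPM in the p0, p2 and p4 libraries of RACM. Adgre1, C1qa, Cd68 and Ptprc were also lower in each PC library than in each RACM library. Glial markers, from cells where Trf is also known, summed to between 27.6 and 28.3 CPM in PC. In the p0, p2 and p4 libraries of RACM they summed to 76.5, 73.8 and 54.3 CPM, highest in p0, where Trf was lowest. The part of these cell types in the difference of Trf was not tested.

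Slc40a1, the gene of ferroportin, the iron exporter that hepcidin binds (ENSMUSG00000025993, chromosome 1 from 45908068 to 45926523, minus strand), was lower in PC. It had 9.52, 5.30 and 4.62 CPM in the p0, p2 and p4 libraries of PC, against 20.3, 31.1 and 31.3 CPM in the p0, p2 and p4 libraries of RACM. The groups did not overlap, and the p0 libraries of both cell types were nearest to each other. The means were 6.48 ± 2.65 CPM over PC and 27.5 ± 6.30 CPM over RACM libraries (SD, n = 3 each), and the log2 fold change was -2.09 ± 0.34 (SE). Within p0 the log2 ratio was -1.09, and within p2 and p4 it was -2.55 and -2.76. RACM p0, with the lowest macrophage sum, was 2.13-fold above the highest PC library for Slc40a1. Macrophages also export iron through ferroportin. Within RACM, Slc40a1 was lowest in p0, as were the macrophage and fibroblast sums, but its p2 and p4 levels were nearly equal. The part of macrophages and fibroblasts in the difference was not tested.

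The ferritin chains differed from each other. Fth1, the heavy chain with ferroxidase activity (ENSMUSG00000024661, chromosome 19 from 9980598 to 9985098), had 975.9, 667.1 and 788.6 CPM in the p0, p2 and p4 libraries of PC, against 1167, 714.5 and 718.1 CPM in the p0, p2 and p4 libraries of RACM. The cell types overlapped, and in both the p0 library was the highest. The log2 fold change was -0.10 ± 0.24 (SE). Its sign depended on single libraries and was 0.18 without RACM p0.

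Ftl1, the light chain (ENSMUSG00000050708, chromosome 7 from 45457944 to 45459884), had 128.7, 81.1 and 98.5 CPM in the p0, p2 and p4 libraries of PC, against 189.6, 258.5 and 281.3 CPM in the p0, p2 and p4 libraries of RACM. PC libraries were below all RACM libraries, with p0 of both nearest to each other. The log2 fold change was -1.24 ± 0.22 (SE). The CPM ratio of heavy to light chain was 7.58, 8.23 and 8.00 in the p0, p2 and p4 libraries of PC, against 6.16, 2.76 and 2.55 in the p0, p2 and p4 libraries of RACM. The RACM p0 library was thus closer to the PC libraries than to the other RACM libraries. Ftl1 in RACM stood in the order of the macrophage and the fibroblast sums, whose part in the difference was not tested.

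Counts of Ftl1 are uncertain, because near-identical copies exist and 34.6% of its exon bases overlap other genes. The copy Ftl1-ps1 took 55.8, 59.0 and 43.1 CPM in the p0, p2 and p4 libraries of PC, against 77.3, 109.3 and 125.8 CPM in the p0, p2 and p4 libraries of RACM. Summed with it, Ftl1 was at 184.5, 140.1 and 141.6 CPM in PC, against 267.0, 367.8 and 407.1 CPM in RACM, in the same order of libraries. The groups still did not overlap. The pseudogene Ftl2-ps, left out of this sum, had 4, 4 and 5 counts in the p0, p2 and p4 libraries of PC. In those of RACM it had 281, 9 and 13 counts, so it stood out in RACM p0, the RACM library with the lowest Ftl1. Its part in the Ftl1 level of that library was not tested.

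**Figure D2:**
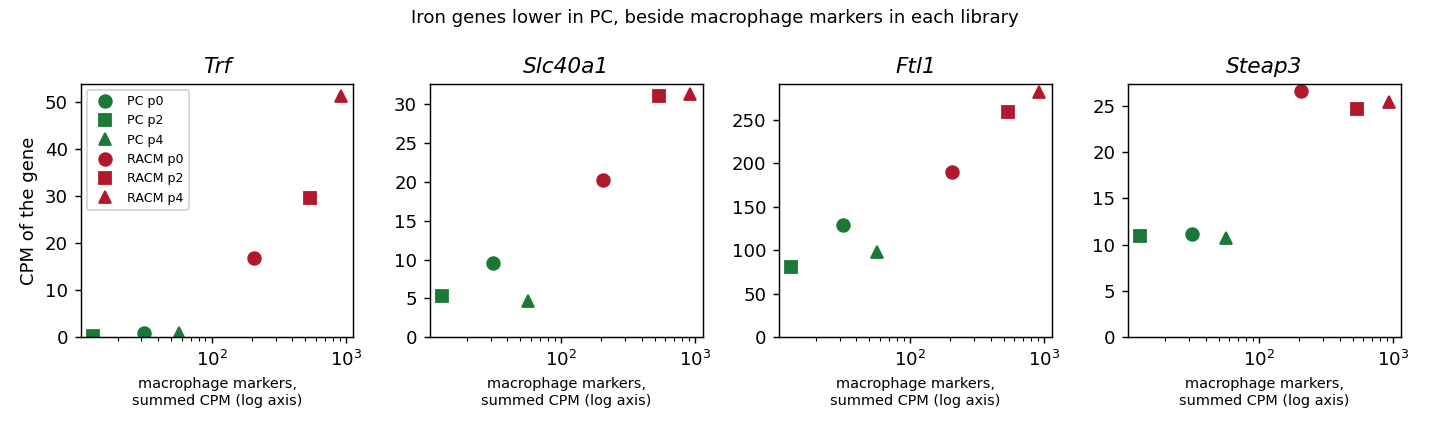
CPM of 4 iron genes that were lower in PC (vertical axes) against the summed CPM of 15 macrophage markers (log axes), 1 point per library, PC in green and RACM in red. Among the RACM points Trf was at 16.96, 29.6 and 51.4 CPM for p0, p2 and p4, while Steap3 was at 26.6, 24.6 and 25.4 CPM.

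Over the 10 genes, 4 were higher and 4 lower in every PC library than in every RACM library, and 2 overlapped. Of all 18015 genes tested, libraries did not overlap for 26.9%. An edgeR test across all genes called 6 of the 10, where it called 7.27% of all genes. Of the 6, Hamp and Hfe were higher, as were 3.69% of all genes, and Trf, Slc40a1, Ftl1 and Steap3 were lower, as were 3.57%. Without RACM p2, or without both p4 libraries, 5 were called and Ftl1 was not. The count was 7 by DESeq2 (12.8% of all genes) and with no filter (7.07%), and 6 by limma-voom (5.93%) and with the replicate block (11.6%). Since the genes were listed with this contrast known, nothing is read from these counts. All 10 passed the filter on low counts, and 8 of them reached its level in every library of both cell types. Trf missed it in PC p2, and Hamp2 in RACM p2 and p4.

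**Figure D3:**
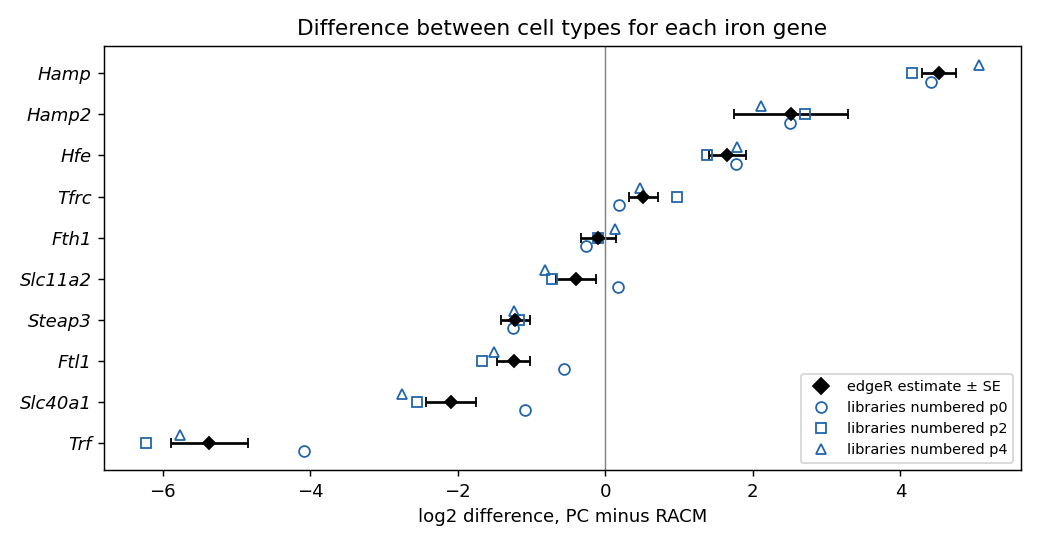
Log2 difference, PC minus RACM, of each iron gene: diamonds give the edgeR estimate with its SE, open symbols the ratio of the libraries of the same p number. The Steap3 symbols lie within -1.25 and -1.17, and those of Trf range from -6.23 to -4.08.

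Genes were compared with Hamp by pattern over the 6 libraries, not by level. The measure was the root mean square difference of log2(CPM + 0.5) profiles, each centred on its own mean. The nearest genes were Fmod, Klhdc8a, 5330417C22Rik, Unc80 and Uchl1. Their differences from Hamp ran from 0.28 to 0.29, where the median over 9282 genes was 2.19. Fmod, a small proteoglycan of the matrix, was at 73.3 CPM over PC and 4.50 CPM over RACM libraries. Nearest to Trf were Lilrb4a, Tyrobp, Lyz2, C3ar1 and Rgs1, with differences from 0.31 to 0.50 against a median of 2.40. Of these, Lyz2, the gene of a lysozyme, stands on the macrophage list and was at 3.38 CPM over PC and 86.7 CPM over RACM libraries. Tyrobp, an adaptor of myeloid receptors, was at 1.63 CPM over PC and 36.1 CPM over RACM libraries. Nearest to Slc40a1 were Actn1, Cd44, Fyn, Tshz2 and Ptk7, with differences from 0.25 to 0.29 against a median of 1.14. The 6 libraries form a pair of cell types, so many genes share such a profile.

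The p number was not used to list the genes and could be tested. An F test of the number in an edgeR model with cell type called none of the 10 genes and 1 of all 18015 (0.00555%). At an unadjusted p under 0.05 it was 1 of the 10, Fth1, where 11.9% of all genes passed. Fth1 was lower in the p2 and p4 libraries, with log2 differences from p0 of -0.63 and -0.50 (edgeR F test, adjusted p = 0.262). DESeq2 called Fth1 (adjusted p = 0.0214) among 3.81% of genes, and limma-voom, which called 0.944%, called none of the 10 (adjusted p of Fth1 = 0.0906). Without PC p4 or RACM p4 the edgeR adjusted p of Fth1 was 0.0468 and 0.0259. With no filter on low counts, where 2.18% of genes were called, it was 0.0252.

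Hamp2 had the lowest level in p4 of both cell types. Its log2 differences from p0 were -0.67 for p2 and -1.99 for p4 (edgeR F test, adjusted p = 0.485). Hamp did not share this pattern, with log2 differences from p0 of 0.12 for p2 and -0.03 for p4 (edgeR adjusted p = 0.921). For Trf the log2 difference of p4 from p0 was 0.98 (edgeR adjusted p = 0.505), where RACM p4 was the highest of the RACM libraries and PC p0 the highest of the PC libraries. With 1 library per cell type and number, a change with the number in one cell type alone could not be tested.

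**Figure D4:**
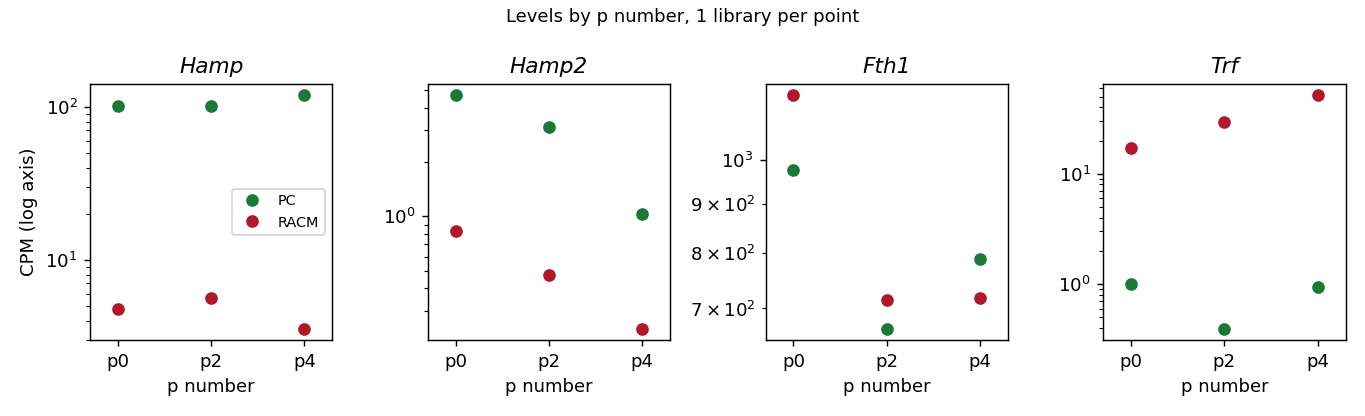
CPM (log axes) of Hamp, Hamp2, Fth1 and Trf by p number, with 1 library per point, PC in green and RACM in red. Hamp2 was lowest in p4 of both cell types, at 1.04 CPM for PC and 0.240 CPM for RACM, and Fth1 was highest in p0 of both.

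Other genes of iron metabolism were tested in the edgeR fit across all genes, with Benjamini-Hochberg adjustment over the 18015 genes and a threshold of 0.05. Their lists were drawn up with earlier results of these data known. The counts per list are therefore a description and no independent test of a list. Of 93 listed genes, 84 were measured, 4 rose and 3 fell in PC, where 3.69% of all genes rose and 3.57% fell. The 7 calls are near that background of 7.27%. With the p number as a replicate block, 7 rose and 7 fell, against 11.6% of all genes called. The median log2 fold change of the 84 was 0.07, and that of all genes tested was 0.01. In bulk libraries these differences have the same limit on cell mixture as those above.

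Among the genes that control hepcidin, 4 of 22 measured rose and none fell, at a median log2 fold change of 0.07, where 3.69% of all genes rose. The count of 4 depended on single libraries and was 2 when RACM p2, RACM p4 or PC p0 was left out. With the replicate block 5 rose and 2 fell in this list, where 1074 of all 18015 genes rose and 1008 fell. Bmp2, a BMP ligand that induces hepcidin in mouse liver (chromosome 2 from 133552159 to 133562885), was at 196.7, 144.3 and 155.7 CPM in the p0, p2 and p4 libraries of PC, against 11.6, 14.7 and 21.6 CPM in the p0, p2 and p4 libraries of RACM. Its groups were far apart, and its log2 fold change was 3.37 ± 0.26 (SE, edgeR adjusted p = 0.000181). Hjv, the gene of hemojuvelin, a BMP co-receptor needed for normal hepcidin levels (listed as Hfe2; chromosome 3 from 96525172 to 96529210), was at 207.4 ± 43.6 CPM over PC and 112.4 ± 5.53 CPM over RACM libraries (SD, n = 3 each). Its log2 fold change was 0.88 ± 0.18 (edgeR adjusted p = 0.0206), and the adjusted p was 0.0526 without PC p0, 0.0857 without both p4 libraries, 0.101 without RACM p2 and 0.0605 without RACM p4.

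Furin, a proprotein convertase that cuts both prohepcidin and hemojuvelin, was at 178.9 ± 20.3 CPM over PC and 66.8 ± 9.18 CPM over RACM libraries (SD, n = 3 each; log2 fold change 1.42 ± 0.17, edgeR adjusted p = 0.00174). Id1, a BMP target gene that was picked knowing its values, averaged 20.2 CPM over PC and 8.31 CPM over RACM libraries (log2 fold change 1.28, edgeR adjusted p = 0.0339). Id1 did not pass by limma-voom (adjusted p = 0.0645), nor when any library other than PC p4 was left out (adjusted p from 0.0806 to 0.116). Bmp6, the ligand best known for hepcidin control in liver, did not pass, at 4.18, 1.19 and 1.42 CPM in the p0, p2 and p4 libraries of PC, against 2.14, 2.33 and 2.93 CPM in the p0, p2 and p4 libraries of RACM (log2 fold change -0.13, edgeR adjusted p = 0.936). Il6, the cytokine that induces hepcidin through STAT3, was lower in every PC library, at 3.93 ± 2.02 CPM over PC and 18.5 ± 13.9 CPM over RACM libraries (SD, n = 3 each). It did not pass (log2 fold change -2.23, edgeR adjusted p = 0.0571) but did with the replicate block (adjusted p = 0.00354). Also with the replicate block, Neo1, a hemojuvelin receptor (404.9 CPM over PC and 293.3 CPM over RACM libraries), rose (adjusted p = 0.0445), and the receptor gene Il6ra fell (adjusted p = 0.0429). Bmp6, Il6, Neo1 and Il6ra were named after their values were seen. The receptor gene Tfr2 had 0 counts in all libraries, and Tmprss6, a protease that cuts hemojuvelin, had 10 counts in PC and 19 in RACM and was not tested.

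Of 14 measured genes of uptake and export, none rose and 2 fell, where 3.57% of all genes fell, at a median log2 fold change of -0.10. Slc39a8, the transporter ZIP8, which carries zinc, manganese and iron, was at 43.0, 21.7 and 23.1 CPM in the p0, p2 and p4 libraries of PC, against 196.9, 186.9 and 138.9 CPM in the p0, p2 and p4 libraries of RACM. Its log2 fold change was -2.58 ± 0.29 (SE, edgeR adjusted p = 0.00128). In RACM it stood opposite to the macrophage and fibroblast sums, highest in p0 and lowest in p4. Cd163, the receptor by which macrophages take up haemoglobin bound to haptoglobin, is itself on the macrophage list. It was at 0.668, 0.113 and 0.377 CPM in the p0, p2 and p4 libraries of PC, against 4.55, 9.36 and 30.4 CPM in the p0, p2 and p4 libraries of RACM. Its log2 fold change was -5.24 ± 0.86 (edgeR adjusted p = 0.00862), a call lost by limma-voom (adjusted p = 0.0945). With the replicate block the ferroxidase gene Cp, chosen after its values were seen, also fell (edgeR adjusted p = 0.0261). It was at 4.62, 4.51 and 10.7 CPM in the p0, p2 and p4 libraries of PC. In those of RACM it was at 7.17, 14.4 and 66.0 CPM, so the groups overlapped. The means were 6.61 CPM over PC and 29.2 CPM over RACM libraries. In RACM, Cp stood in the order of the macrophage and fibroblast sums, whose part was not tested. Without the block Cp did not pass (edgeR adjusted p = 0.131).

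Of 18 measured genes of heme handling, none rose and 1 fell, close to the 3.57% of all genes, at a median log2 fold change of 0.11. The one that fell was Hmox1, heme oxygenase, which frees iron from heme, at 5.68, 4.46 and 2.40 CPM in the p0, p2 and p4 libraries of PC, against 12.5, 29.2 and 49.8 CPM in the p0, p2 and p4 libraries of RACM. Its log2 fold change was -2.87 ± 0.51 (SE, edgeR adjusted p = 0.0125), and in RACM it stood in the order of the macrophage and fibroblast sums, whose part was not tested.

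Among 10 measured genes of storage and sensing, edgeR called none, with 2 at an unadjusted p under 0.05 (21.1% of all genes). DESeq2 called 2 of them (12.8% of all genes) and limma-voom 1 (5.93%). The iron regulatory protein genes Aco1 and Ireb2, looked up after their values were seen, had log2 fold changes of -0.02 and 0.06. With the replicate block 1 gene of this list, the hypoxia factor Epas1, fell (29.8 CPM over PC and 80.2 CPM over RACM libraries, edgeR adjusted p = 0.00776). Of all 18015 genes, 1008 fell with the block. Of 20 genes of iron-sulfur cluster assembly, edgeR called none, with 8 at an unadjusted p under 0.05, all higher in PC. Of all 18015 genes, 1937 were higher in PC at that unadjusted threshold. DESeq2 and limma-voom called none of the 20. Their median log2 fold change was 0.36, and 17 of the 20 were above 0, as were 9094 of all 18015 genes. With the replicate block 2 rose, the assembly gene Isca2 and the chaperone gene Hspa9, where 1074 of all 18015 genes rose. Isca2 was at 75.3 CPM over PC and 50.7 CPM over RACM libraries (edgeR adjusted p = 0.0478 with the block, 0.12 without). Hspa9 was at 427.5 CPM over PC and 287.7 CPM over RACM libraries (edgeR adjusted p = 0.029 with the block, 0.13 without). The groups of Hspa9 overlapped, with PC p2 at 354.1 CPM and RACM p0 at 356.5 CPM.

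**Figure D5:**
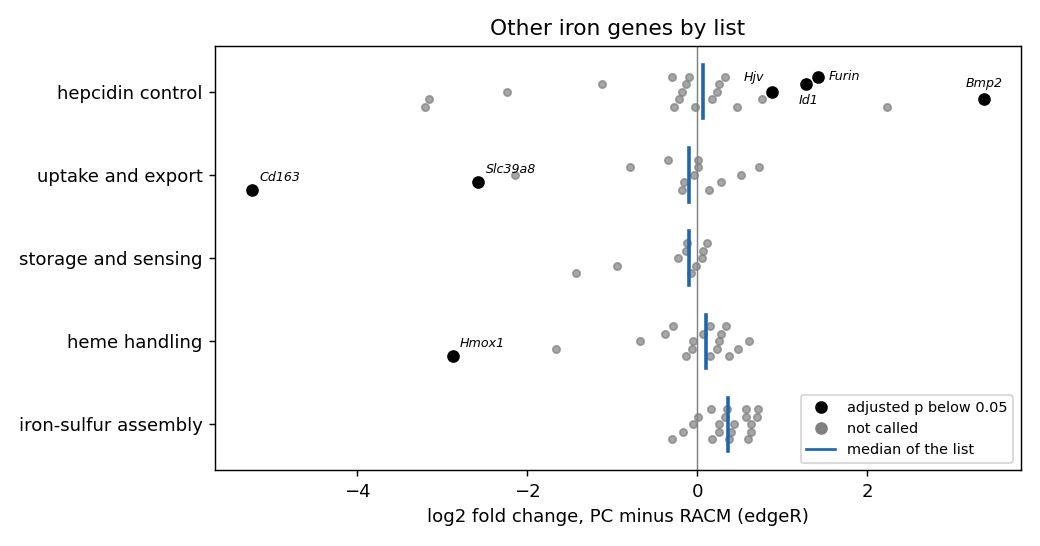
Log2 fold change, PC minus RACM, of the measured genes in 5 lists of iron metabolism, 1 point per gene, black where the edgeR adjusted p was below 0.05, blue lines at list medians. The 4 black points above 0 belong to hepcidin control, and the 3 below 0 are Slc39a8, Cd163 and Hmox1.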

How the data were processed

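The deposited values are raw counts of read pairs per gene, over exons. Per the file headers, the authors counted with featureCounts 2.0.1 on an mm10 exon annotation, with no strand option and none for reads mapping to several places. The submitters' processing notes also name Trimmomatic, HISAT2 and edgeR. Per the labels' protocols, cDNA was made with an Ovation kit and read in pairs of 100 bp. Another 7 samples, of ATAC-seq, were not used here.

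The members and gene lists were chosen with earlier results of these data known. Of the gene IDs, 55141 matched a symbol, and 4 listed symbols were found under a synonym, of which 1 repeated a gene of the same list. Genes passing filterByExpr (minimum count 10, minimum total count 15) were tested with edgeR 4.0.16 (TMM, quasi-likelihood, 2-sided) in R 4.3.3. The p number was tested by an F test beside cell type. Alternatives were other scalings and filters, DESeq2 1.42.0, limma-voom (limma 3.58.1), the p number as a replicate block, and leaving out libraries. Deviations of same-numbered libraries from the cell type mean correlated by 0.156, 0.234 and 0.237 for p0, p2 and p4, so the numbers were taken as a pairing, from these values alone. The main PC and RACM fit has no block, so its SE and adjusted p leave this pairing out. The blocked fit is given as an alternative and called 2082 genes, where the main fit called 1309. On simulated counts (18015 genes, 50 altered per fold size), edgeR found 12% of 2-fold, 62% of 4-fold and 80% of 8-fold differences between PC and RACM. For the p number, with counts changed in the p4 libraries alone, it found 2%, 42% and 66%. At 16-fold it found 78% between the cell types and 70% for the p number. Simulated libraries were drawn independently, so the pairing by number was not modelled. With 3 libraries against 3, an exact permutation test cannot go below 0.1, so none is given. By rule, the genes named outside the members are, per list, the 3 with the smallest p among those called, plus the top call of the other sign, and the 5 nearest in pattern to Hamp, Trf and Slc40a1. Id1, Bmp6, Il6, Neo1, Il6ra, Cp, Aco1, Ireb2, Epas1, Isca2, Hspa9, Cpox, Tfr2, Tmprss6, Ftl1-ps1 and Ftl2-ps fall outside the rule and were named after their values were seen. Promoter sequences are from RefSeq (GRCm38.p6).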

Additional observations from a re-analysis of the deposited data

How the results depend on the processing

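Of 139 recomputed log2 fold changes of the 10 iron genes, 132 moved by less than the spread between the p numbers. The 7 others were Hamp2 without 1 library (from 2.01 to 3.03), Fth1 without RACM p0 (0.18), and Steap3 with upper-quartile scaling or the stricter filter (-1.28 and -1.26). With 1 library left out the range was 4.36 to 4.69 for Hamp and -5.67 to -4.88 for Trf. Per length Hamp in PC was 1.12 times Fth1, and without length correction 0.132 times.

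Counts of calls were less stable. For PC against RACM, 1309 genes were called, 2339 with no filter, 2304 by DESeq2, 2082 with the replicate block, 511 to 1338 with 1 library left out, and 734 without both p4 libraries, which was added after seeing the data. Of the other iron genes 7 were called, 13 with no filter, 12 by DESeq2, 14 with the replicate block, and 5 to 11 with 1 library left out. The p number called 1 gene, 720 with no filter, 54 with the stricter filter, 686 by DESeq2, 170 by limma-voom, and 77 to 458 with 1 library left out. Among the iron genes Fth1 passed that test with no filter (adjusted p = 0.0252). The cause was not tested. With 3 libraries of each cell type, few replicates and low counts limit what can be shown for Hamp2 and for Trf in PC.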

Other observations

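By the p number, none of the 84 measured iron genes outside the 10 passed edgeR, and 10 had an unadjusted p under 0.05, where 11.9% of all genes tested did. The smallest p belonged to Cpox, an enzyme of heme synthesis, with log2 differences from p0 of -1.38 for p2 and -1.16 for p4 (edgeR adjusted p = 0.107). It was at 54.4, 24.3 and 30.3 CPM in the p0, p2 and p4 libraries of PC, against 58.1, 19.4 and 20.8 CPM in those of RACM. The higher level in p0 was thus seen in both cell types, as for Fth1.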
